A study of Mus musculus with 8 samples.

Results

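MHC class I presentation was followed through 10 genes in mouse macrophages with and without PTIP, at rest and after LPS. The genes were taken by symbol from the deposited table. No cut on their values was used, but the members were chosen with earlier results of these data known. They were the heavy chain genes H2-K1, H2-D1, H2-T23 and H2-Q4, the light chain gene B2m, the peptide transporter genes Tap1 and Tap2, the loading factor gene Tapbp, the trimming enzyme gene Erap1 and the activator gene Nlrc5. They are 10 of the 55226 genes of the table, and all 10 were among the 11543 genes tested, those with a mean value of at least 3 over the 8 samples. The cells were bone marrow-derived macrophages (BMDMs) of C57BL/6 mice, grown from femur marrow for 7 days in medium with 10% serum (FBS) and 10 ng/ml of M-CSF, the growth factor that drives macrophage differentiation. The 4 groups of 2 samples each were PtipWT (WT) macrophages at 0 h, PtipWT macrophages after 6 h with 100 ng/ml LPS, a bacterial cell wall component, and PtipcKO (cKO) macrophages at 0 h and after the same LPS treatment. The sources used here do not give the deleted part of the gene, the Cre driver of the cKO or the age of the mice. The series text calls the 2 samples of a group biological replicates, but the labels do not tie a replicate number to a mouse, so p-values measure only the spread between these samples.

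Nearly every nucleated cell shows fragments of its own proteins on MHC class I molecules, where CD8+ T cells and natural killer cells read them. Proteasomes cut proteins into peptides, the Tap1-Tap2 pump carries the peptides into the endoplasmic reticulum, Erap1 trims them, and tapasin, the protein of Tapbp, holds an empty heavy chain with beta-2 microglobulin (B2m) beside the pump until a peptide fits. H2-K1 and H2-D1 encode classical heavy chains, which present to T cells. H2-T23 encodes the nonclassical chain Qa-1, which presents leader peptides of other class I chains to the CD94/NKG2 receptors of natural killer cells, and H2-Q4 belongs to the nonclassical Q group. Nlrc5 is the class I transactivator: it does not bind DNA by itself but joins the RFX, CREB/ATF and NF-Y proteins that sit on the X and Y boxes of class I promoters. Macrophages stimulated with LPS also make interferon beta, and interferons and NF-kB are known inducers of these genes through ISRE and kappa B elements.

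Promoter sequence from RefSeq (GRCm38.p6) was found for 8 of the 10 genes, and is shown for those whose control regions carry the landmarks that the results refer to. Each window held 250 bases before and 50 bases after an annotated start, and 5 motifs were searched on both strands: the IRF site as GAAANNGAA, the ISRE, which contains it, as the same letters followed by 1 more A, the Y box as CCAAT, the X2 box as TGACG, and the NF-kB consensus. Tap1 and B2m had the largest and the smallest LPS difference, averaged over genotypes, among the 8, and H2-K1 was added after the values were seen, as a classical heavy chain. The 250 bases before the start are given 5′ to 3′ on the gene's strand, for Tap1 at chr17:34187306-34187555 (plus), for B2m at chr2:122147437-122147686 (plus) and for H2-K1 at chr17:34000348-34000597 (minus), with capitals on motif matches.
Tap1: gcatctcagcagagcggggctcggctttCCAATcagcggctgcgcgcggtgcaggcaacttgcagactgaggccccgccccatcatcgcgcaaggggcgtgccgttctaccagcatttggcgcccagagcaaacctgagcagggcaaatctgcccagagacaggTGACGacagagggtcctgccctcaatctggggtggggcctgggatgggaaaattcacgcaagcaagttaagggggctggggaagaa
B2m: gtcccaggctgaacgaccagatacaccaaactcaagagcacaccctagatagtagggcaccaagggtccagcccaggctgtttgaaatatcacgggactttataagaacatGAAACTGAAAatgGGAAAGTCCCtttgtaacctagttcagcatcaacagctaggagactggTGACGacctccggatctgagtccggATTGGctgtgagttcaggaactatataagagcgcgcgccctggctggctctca
H2-K1: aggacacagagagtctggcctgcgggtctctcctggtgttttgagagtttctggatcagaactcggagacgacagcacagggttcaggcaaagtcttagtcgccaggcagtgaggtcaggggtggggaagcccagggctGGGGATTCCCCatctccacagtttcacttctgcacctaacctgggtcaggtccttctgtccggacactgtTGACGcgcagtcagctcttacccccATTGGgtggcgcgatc
In H2-K1 the NF-kB match began 111 bases before the start, the X2 box 41 bases and the Y box, read on the other strand as ATTGG, 16 bases before it. B2m held an ISRE match 139, an NF-kB match 126, an X2 box 78 and a Y box 53 bases before its start. Tap1 held a Y box 222 and an X2 box 86 bases before its start.

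The X2 and Y boxes of H2-K1, H2-D1 and B2m stood at the same distance, with the first base of the Y box 25 bases after that of the X2 box. The 30-base stretches from the one to the other are compared here, at chr17:34000359-34000388 (minus) for H2-K1, chr17:35262993-35263022 (plus) for H2-D1, chr2:122147609-122147638 (plus) for B2m and chr17:35379513-35379542 (plus) for H2-Q4, where the stretch ends in the Y box and does not begin with the searched X2 letters.
H2-K1: TGACGcgcagtcagctcttacccccATTGG
H2-D1: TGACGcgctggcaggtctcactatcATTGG
B2m: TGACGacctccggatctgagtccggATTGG
H2-Q4: tgacttactggcagttctcacccccATTGG
Of 32851 promoter windows, 31 (0.094%) held this pair at this spacing on either strand, and 4 of them belonged to these 3 genes, because H2-K1 has 2 windows that overlap. The spacing was noticed in the matches and was not part of the search. For H2-T23, whose level differed between the genotypes, the stretch at chr17:36032806-36032835 (minus) holds the ISRE match, set beside that of B2m at chr2:122147538-122147567 (plus), with the ISRE in capitals.
H2-T23: atcctactgcTTTCTCTTTCataaagacac
B2m: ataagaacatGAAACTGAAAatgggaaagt
The ISRE of H2-T23 lies on the other strand, 124 bases before the RefSeq start. The stretches of H2-T23 and H2-D1 lie inside the GENCODE M21 spans of these genes, so before the start holds for the RefSeq start and not for every annotated start. The 8 genes had 9 windows. An ISRE match occurred in 3 of these windows (H2-T23, B2m and Erap1) and in 3.44% of all windows, an NF-kB match in 5 (both of H2-K1, and H2-D1, H2-Q4 and B2m) and in 4.51%, an X2 box in 6 and in 20.81%, a Y box in 8 and in 37.41%, and an IRF site in 3 and in 8.56%. These matches describe letters in the windows and were not tested for binding.

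The libraries followed their labels at Paxip1, the gene of PTIP. In WT its level was 4.503 and 4.501 before LPS and 3.82 and 4.08 with LPS, and in cKO 2.54 and 2.48 before and 2.54 and 2.63 with it, so every cKO library lay below every WT library. All levels are the authors' rlog values, log2 expression values after a shrinking transformation, and depth is unknown because no read counts were used. For Paxip1 the rlog difference, cKO minus WT, was -1.99 at 0 h and -1.36 after LPS. The authors' deposited table gives larger log2 fold changes, -4.75 at 0 h (adjusted p = 0.00196) and -4.04 after LPS, the latter without an adjusted p under 0.05. All 10 macrophage markers were measured above the filter in these cells, and 0 of 5 T and natural killer cell markers, 0 of 4 stromal markers and 1 of 5 B cell markers were. The same filter passed 5 of 8 dendritic cell markers, 2 of 6 neutrophil and progenitor markers and 3 of 4 mast cell and basophil markers. In bulk samples, fewer cells of a type and less RNA per cell cannot be told apart.

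LPS raised most of the class I pathway in both genotypes. In WT macrophages 8 of the 10 genes rose and 0 fell, with a median log2 difference of 1.11 over the 10, against -0.01 over all genes tested. In cKO macrophages 7 rose and 0 fell, with a median of 0.87 against -0.02. Over all tested genes 22.5% rose and 19.7% fell in WT, 42.2% in all, and 19.6% rose and 17.5% fell in cKO, 37% in all. Calls are adjusted p-values under 0.05 (limma, Benjamini-Hochberg over the 11543 genes). Each log2 difference comes with its standard error (SE) from that fit. Tap1, Nlrc5 and Tap2 differed by over 2 log2 units in both genotypes, Erap1, Tapbp, H2-T23 and H2-K1 by 0.78 to 1.19, H2-Q4 by 1.06 in WT and 0.51 in cKO, and H2-D1 and the light chain gene B2m by 0.13 to 0.61.

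**Figure D1:**
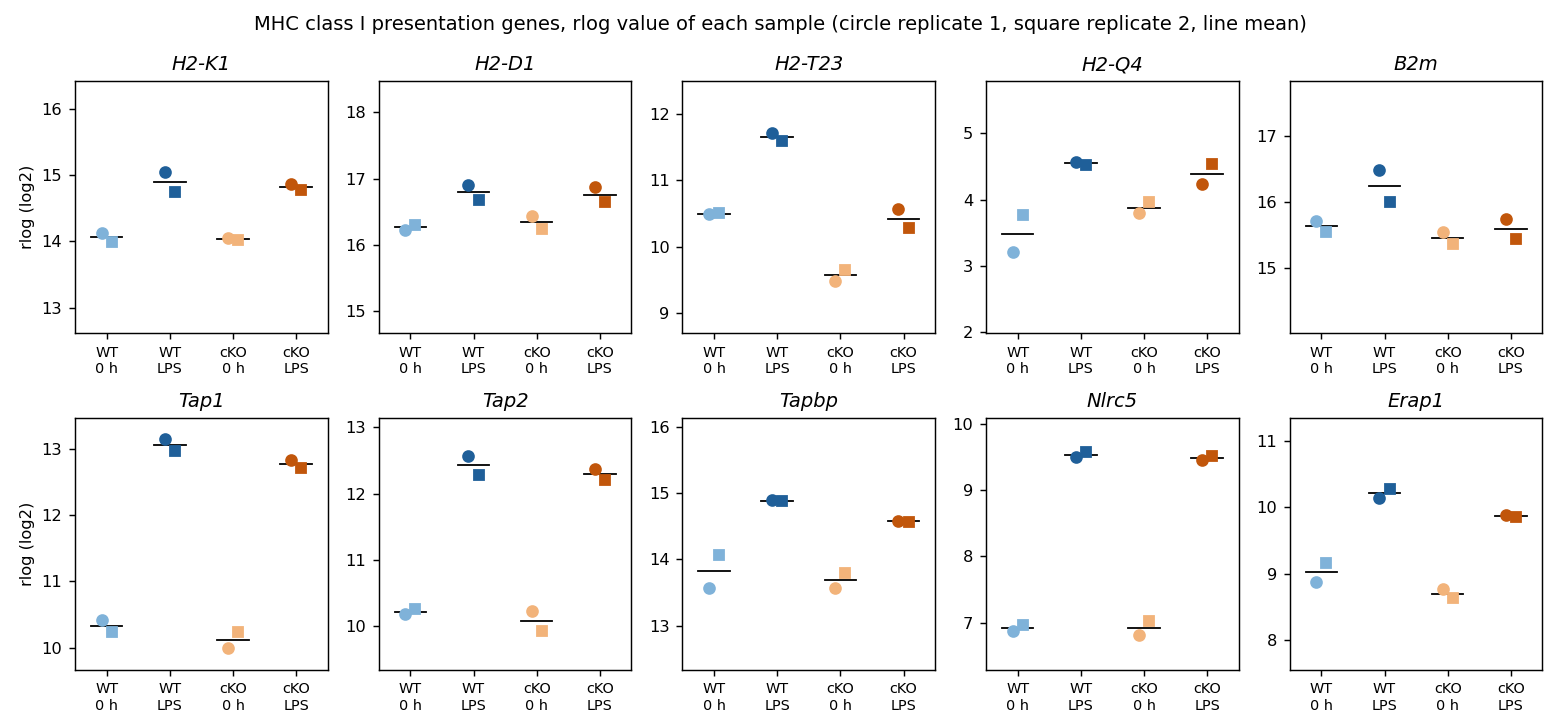
Rlog value (log2 scale, vertical axis) of each of the 10 genes in each of the 8 samples, by group; circles are replicate 1, squares replicate 2 and lines the mean of the 2, and every panel spans the same number of log2 units from its own starting level. Tap1, Tap2 and Nlrc5 show wide steps from 0 h to LPS in both genotypes, and H2-T23 is the gene with cKO samples below WT samples at both times by the widest gap.

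Nlrc5 (chr8:94434356-94527272, plus strand, GRCm38), the transactivator, stood at 6.88 and 6.96 in WT at 0 h and at 9.50 and 9.57 after LPS. In cKO its levels were 6.81 and 7.02 at 0 h and 9.46 and 9.51 after LPS. Both LPS samples lay far above both 0 h samples in each genotype, and the genotypes overlapped at each time. The LPS difference was 2.61 in WT (SE 0.13, adjusted p = 9.32e-06) and 2.57 in cKO (SE 0.13, adjusted p = 1.46e-05). Of its exons 78 bases overlap a gene on the opposite strand, and the sources used here do not give the strand setting of the counting.

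Tap1 (chr17:34187553-34197225, plus strand) and Tap2 (chr17:34203527-34216321, plus strand), neighbours in the MHC that encode the 2 chains of the peptide pump, moved alike. Tap1 rose from 10.42 and 10.24 to 13.14 and 12.97 in WT, and from 9.99 and 10.23 to 12.84 and 12.71 in cKO. Its LPS difference was 2.73 in WT (SE 0.14, adjusted p = 9.8e-06) and 2.66 in cKO (SE 0.14, adjusted p = 1.74e-05). Tap2 rose from 10.19 and 10.26 to 12.57 and 12.29 in WT, and from 10.23 and 9.93 to 12.37 and 12.21 in cKO. The difference of Tap2 was 2.20 in WT (SE 0.15, adjusted p = 2.3e-05) and 2.22 in cKO (SE 0.15, adjusted p = 3.09e-05). No LPS sample of either gene reached down to a 0 h sample. Tap1 shares 212 exon bases with the immunoproteasome gene Psmb9 on the opposite strand, and Tap2 shares up to 533 with Gm15821.

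Downstream of the pump, Erap1 (chr13:74639568-74693201, plus strand), the aminopeptidase that trims peptides to fit, rose from 8.87 and 9.16 to 10.14 and 10.28 in WT, and from 8.77 and 8.62 to 9.89 and 9.85 in cKO. The difference was 1.19 in WT (SE 0.14, adjusted p = 0.000234) and 1.17 in cKO (SE 0.14, adjusted p = 0.000333). Tapbp (chr17:33915899-33929292, plus strand), the gene of tapasin, went from 13.58 and 14.07 to 14.90 and 14.88 in WT, and from 13.58 and 13.79 to 14.59 and 14.56 in cKO. Its difference was 1.07 in WT (SE 0.19, adjusted p = 0.00262) and 0.89 in cKO (SE 0.19, adjusted p = 0.00756). The samples of the 2 times did not overlap for either gene. Erap1 shares 834 exon bases with Cast on the opposite strand. Tapbp shares 904 with Gm19412 on the opposite strand and 149 with Zbtb22 on the same strand. Quantile normalization, which gives all samples the same distribution, ended the calls of Tapbp (0.37 and adjusted p = 0.125 in WT, 0.48 and adjusted p = 0.0589 in cKO), and the cKO call also ended without cKO LPS replicate 1 (adjusted p = 0.0524).

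Among the heavy chains, the classical gene H2-K1 (chr17:33996017-34000347, minus strand) went from 14.13 and 13.99 to 15.04 and 14.74 in WT, and from 14.05 and 14.03 to 14.86 and 14.78 in cKO. The rise was 0.83 in WT (SE 0.17, adjusted p = 0.00452) and 0.78 in cKO (SE 0.17, adjusted p = 0.00721). All LPS samples lay above all 0 h samples. With quantile normalization the values were 0.16 (adjusted p = 0.348) and 0.31 (adjusted p = 0.0922), and the cKO call also ended without cKO LPS replicate 1 (0.74, adjusted p = 0.0594).

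H2-D1 (chr17:35262730-35267499, plus strand), the other classical chain, started higher per kb of exon and differed less. Its levels were 16.23 and 16.30 at 0 h and 16.91 and 16.68 after LPS in WT, and 16.44 and 16.24 against 16.88 and 16.64 in cKO. The groups did not overlap, but the differences of 0.53 in WT (SE 0.22, adjusted p = 0.0873) and 0.42 in cKO (SE 0.22, adjusted p = 0.177) did not pass the threshold. The WT difference passed with a robust fit (adjusted p = 0.0366) and when the variance was not tied to the mean (adjusted p = 0.0305). Of the 100-base windows of the transcripts of H2-D1, 3.59% occur in another gene too, most often H2-Q1, and for H2-K1, H2-T23 and H2-Q4 these shares were 0.96%, 3.15% and 2.16%, so reads of these chains may be split between copies.

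H2-T23 (chr17:36029773-36032855, minus strand), the Qa-1 gene, stood at 10.49 and 10.50 in WT at 0 h and at 11.70 and 11.59 after LPS. In cKO it stood at 9.49 and 9.64 at 0 h and at 10.56 and 10.28 after LPS. LPS raised it by 1.15 in WT (SE 0.13, adjusted p = 0.000261) and by 0.86 in cKO (SE 0.13, adjusted p = 0.00156). H2-Q4 (chr17:35379617-35385290, plus strand), which shares 496 exon bases with Gm11131 on the opposite strand, had the lowest level of the 10, also per kb of exon. In WT it was 3.20 and 3.77 before and 4.57 and 4.52 with LPS, and in cKO 3.80 and 3.96 before and 4.23 and 4.54 with LPS. It rose in WT by 1.06 (SE 0.23, adjusted p = 0.00692), and the cKO difference of 0.51 (SE 0.23, adjusted p = 0.125) did not pass. Values this low are pulled together by the transformation: in the authors' deposited table the log2 fold change of H2-Q4 was 1.89 in WT (adjusted p = 0.0976) and 0.91 in cKO (adjusted p = 0.472), neither past its threshold, which 15.3% and 15% of the genes tested there passed.

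B2m (chr2:122147686-122153083, plus strand), the light chain shared by all class I molecules, was 15.72 and 15.54 in WT at 0 h and 16.48 and 16.003 after LPS. In cKO it was 15.55 and 15.37 at 0 h and 15.75 and 15.44 after LPS, where the 2 times overlapped. Neither difference passed, at 0.61 in WT (SE 0.23, adjusted p = 0.0658) and 0.13 in cKO (SE 0.23, adjusted p = 0.691, 95% interval -0.40 to 0.67). The WT difference passed with a robust fit (adjusted p = 0.0410), without the variance trend (adjusted p = 0.0439) and without WT LPS replicate 2 (0.85, adjusted p = 0.0344).

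**Figure D2:**
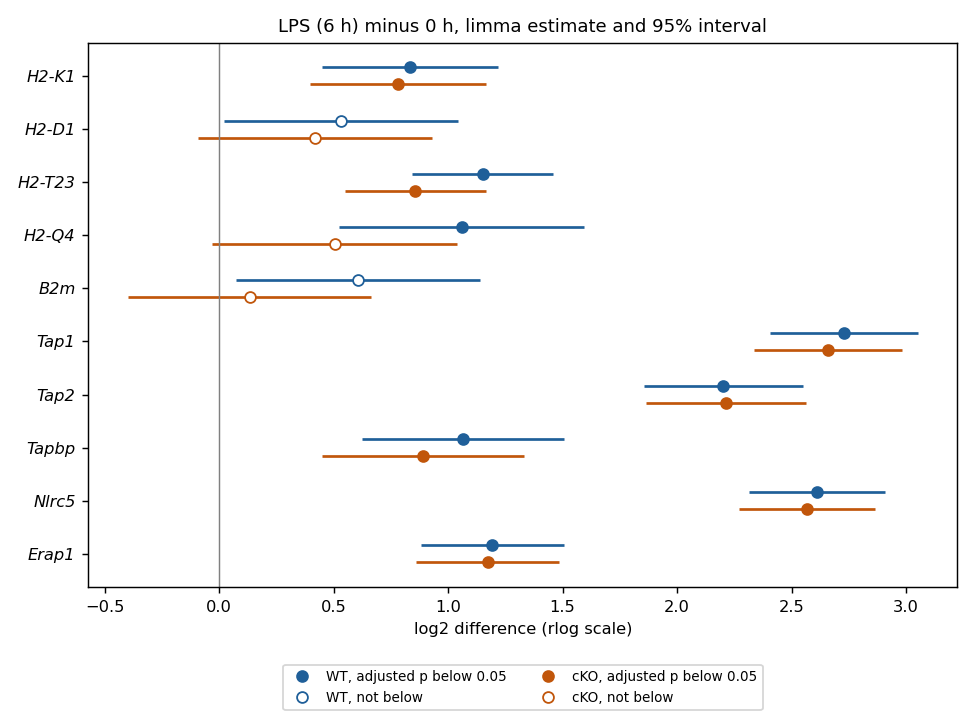
LPS (6 h) minus 0 h for each gene in WT (blue) and cKO (orange), as the limma log2 difference on the rlog scale (horizontal axis) with its 95% interval; filled points have an adjusted p under 0.05. Tap1, Tap2 and Nlrc5 lie at 2.20 to 2.73 in both genotypes, and the intervals of each gene overlap between genotypes.

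The LPS response of none of the 10 genes differed between genotypes by the test of the difference itself. The interaction, the LPS difference in cKO minus that in WT, ran from -0.55 for H2-Q4 to 0.01 for Tap2, with -0.47 for B2m (SE 0.33, adjusted p = 0.811) and -0.29 for H2-T23 (SE 0.19, adjusted p = 0.802). No member had an unadjusted p under 0.05. The 95% interval was -0.46 to 0.37 for Nlrc5, -0.53 to 0.39 for Tap1 and -0.48 to 0.51 for Tap2, so a difference in response of more than 0.53 log2 units in size lies outside the interval of each. For B2m it was -1.23 to 0.28. Over all genes limma called 0 (0%) and 751 had an unadjusted p under 0.05.

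The genotypes differed at 1 of the 10 genes, H2-T23, which was lower in cKO at both times. At 0 h the cKO samples (9.49 and 9.64) lay below the WT samples (10.49 and 10.50), and after LPS they again lay below (10.56 and 10.28 against 11.70 and 11.59). After LPS the cKO samples stood on either side of the untreated WT samples. The difference was -0.93 at 0 h (SE 0.13, 95% interval -1.24 to -0.62, adjusted p = 0.0390) and -1.22 after LPS (SE 0.13, 95% interval -1.53 to -0.92, adjusted p = 0.0111), that is 1.91-fold and 2.34-fold lower. Averaged over the 2 times it was -1.08 (SE 0.10, adjusted p = 0.00167). The authors' deposited table gives log2 fold changes of -1.01 (adjusted p = 0.00171) and -1.28 (adjusted p = 9.71e-07), where 0.806% and 2.97% of all genes passed. Over all tested genes limma called 0.251% at 0 h (0.052% higher, 0.199% lower), 3.97% after LPS (1.51% higher, 2.46% lower) and 7.02% for the averaged difference (2.88% higher, 4.14% lower). After LPS 38% of the calls were thus higher, and with quantile normalization 48.9% were.

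**Figure D3:**
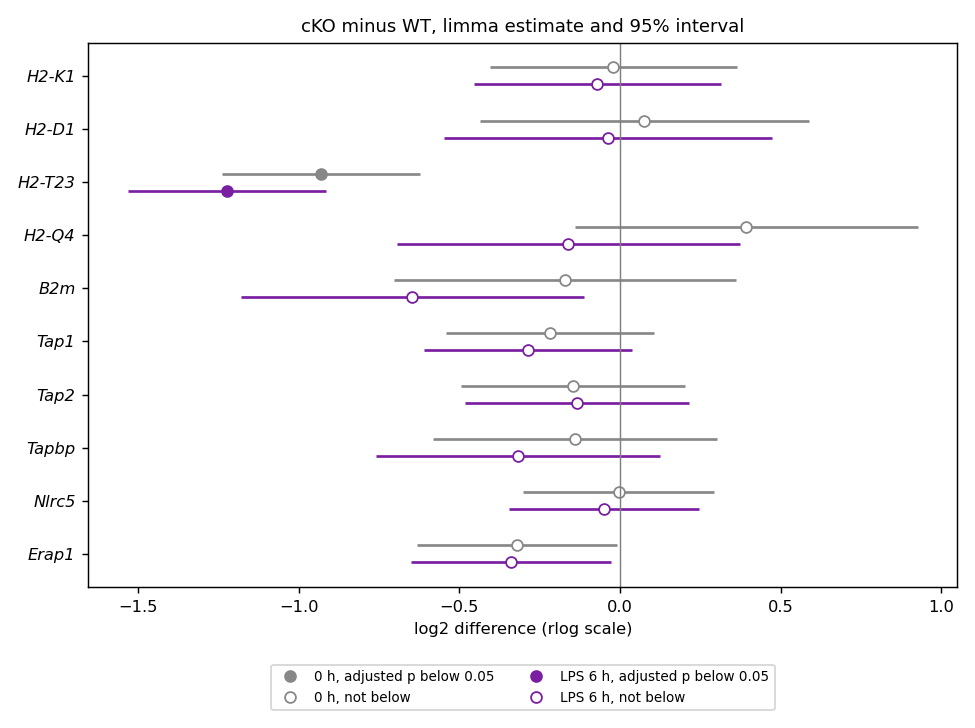
The cKO minus WT difference of each gene at 0 h (grey) and after LPS (purple), as the limma log2 difference on the rlog scale (horizontal axis) with its 95% interval; filled points have an adjusted p under 0.05. Both points of H2-T23 lie near -1, and all other points are open.

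The H2-T23 call at 0 h was close to the threshold. It ended with no filter on low values (adjusted p = 0.0788), with a minimum mean of 5 (adjusted p = 0.0519), without the variance trend (adjusted p = 0.104), with only the 4 samples at 0 h (adjusted p = 0.123) and with any 1 of the 8 libraries left out (adjusted p = 0.0574 to 0.223, differences -0.85 to -1.01). After LPS the call ended without WT LPS replicate 1 (-1.16, adjusted p = 0.0642), cKO LPS replicate 1 (-1.36, adjusted p = 0.0685) or cKO LPS replicate 2 (-1.08, adjusted p = 0.139). The averaged difference passed in every alternative run, at -0.93 to -1.15. None of these runs tied the same-numbered samples of the 2 times within a genotype. If a number marks a mouse, the p-value of the averaged difference rests on fewer independent samples than the fit counts.

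Markers of cell types moved with genotype too, and single genes held most of each summed level. Of the 10 macrophage markers 0 were called at 0 h, and 2 were lower in cKO after LPS, the integrin gene Itgam (-1.11) and the receptor gene Mertk (-1.10). For the averaged difference 4 markers were lower and 1 higher. Among all tested genes 2.46% were lower after LPS, and 4.14% were lower and 2.88% higher for the averaged difference. The higher marker was Spi1, the gene of the myeloid factor PU.1, at 2.38 (adjusted p = 0.0434). Its cKO replicates lay far apart, at 9.17 and 11.94 at 0 h and at 10.80 and 12.50 after LPS. In WT its levels were 8.17 and 8.55 at 0 h and 9.09 and 9.09 after LPS. Cd68 differed by 0.23 and 0.17 and Csf1r by -0.45 and -0.04 at the 2 times, none past the threshold. The log2 of the summed marker level was 19.24 to 19.32 in WT and 18.42 to 18.74 in cKO at 0 h, and 19.48 to 19.53 against 18.57 to 18.62 after LPS, but Lyz2 held 74.5 to 87.3% of that sum. Without Lyz2 it was 16.35 to 16.53 in WT and 15.97 to 16.24 in cKO at 0 h, and 16.76 to 17.02 against 16.56 to 16.65 after LPS. The genotypes did not overlap at either time, with or without Lyz2.

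For the 6 neutrophil and progenitor markers the sum was 6.74 to 7.34 in WT and 7.91 to 7.99 in cKO at 0 h, and 7.52 to 8.03 against 8.52 to 8.72 after LPS. S100a8 held 74.1 to 90.2% of it, and without S100a8 the WT and cKO ranges overlapped at both times, at 4.05 to 4.92 and 4.56 to 4.67 at 0 h and at 5.06 to 6.09 and 6.03 to 6.59 after LPS. The 8 dendritic cell markers summed to 9.02 to 9.45 against 8.90 to 9.09 at 0 h, and to 10.23 to 11.20 against 10.15 to 10.23 after LPS, with 74.8 to 95.9% of the sum in Ccr7. Without Ccr7 the sum was 6.895 to 7.03 in WT and 6.595 to 6.63 in cKO at 0 h, with no overlap. After LPS it was 6.07 to 6.59 against 5.90 to 6.21, where the genotypes overlapped. The part of these shifts in the H2-T23 difference was not tested.

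For the other 9 genes the cKO and WT values did not differ beyond the threshold at either time. For Nlrc5 the difference was 0.00 at 0 h (95% interval -0.30 to 0.29) and -0.05 after LPS (95% interval -0.35 to 0.25). For H2-K1 it was -0.02 (95% interval -0.41 to 0.36) and -0.07 (95% interval -0.46 to 0.31), and for H2-D1 0.08 and -0.04. The pump genes differed by -0.22 and -0.29 (Tap1) and by -0.15 and -0.13 (Tap2), Tapbp by -0.14 and -0.32 and H2-Q4 by 0.39 and -0.16. Erap1 and Tap1 were each lower in both cKO samples at both times. Erap1 differed by -0.32 (adjusted p = 0.450) and -0.34 (adjusted p = 0.196), and its averaged difference was -0.33 (SE 0.10, adjusted p = 0.0828). The averaged difference of Tap1 was -0.25 (SE 0.10, adjusted p = 0.176). Tapbp and B2m after LPS were also lower in both cKO samples, and H2-Q4 at 0 h was higher in both. For B2m after LPS the difference was -0.65 (SE 0.23, 95% interval -1.18 to -0.11, adjusted p = 0.152). The authors' deposited table gives -0.66 there (adjusted p = 0.0783). The median over the 10 genes was -0.14 at 0 h and -0.22 after LPS, against -0.01 and -0.03 over all tested genes. For H2-K1, H2-D1, Tap1, Tap2, Tapbp and Nlrc5 the direction of an uncalled genotype difference turned under quantile normalization at 1 or both times.

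The genes around H2-T23 were looked at after its difference was seen. Of 22 tested genes within 200 kb, 0 were called at 0 h or after LPS with limma, where 0.251% and 3.97% of all genes were called, so a count of 0 among 22 says little about the region. Their differences ran from -0.71 to 0.49 and from -0.77 to 0.96. The nearest heavy chain genes, H2-T24 and H2-T22, differed by 0.08 and 0.01 at 0 h and by -0.15 and -0.27 after LPS, and H2-T10 by 0.04 and -0.20. Ppp1r10, which encodes a regulatory subunit of protein phosphatase 1, lay lowest at both times (-0.71 and -0.77), and its averaged difference passed (-0.74, adjusted p = 0.0200). H2-T24, H2-T22 and H2-T10 rose with LPS in both genotypes, by 1.27, 1.73 and 1.98 in WT and by 1.04, 1.45 and 1.75 in cKO.

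**Figure D4:**
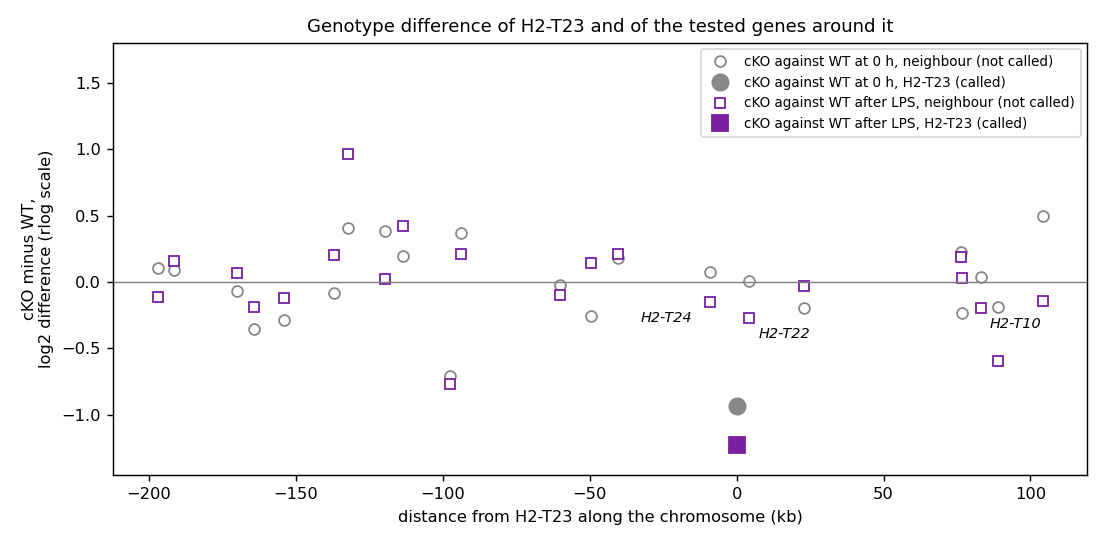
The cKO minus WT log2 difference (vertical axis, rlog scale) of H2-T23 (filled) and of the 22 tested genes within 200 kb (open), by distance from H2-T23 in kb (horizontal axis), at 0 h (grey circles) and after LPS (purple squares). H2-T23 lies below all its neighbours at both times, at -0.93 and -1.22.

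Per kb of exon, the light chain was the most abundant of the 10 and the order within the pathway changed with LPS. On this scale, rlog minus log2 of the merged exon length in kb, WT cells at 0 h had 15.85 for B2m (SD 0.12, n = 2), 14.90 for H2-D1 (SD 0.05), 12.50 for H2-K1 (SD 0.10) and 11.96 for Tapbp (SD 0.35). H2-T23 followed at 8.96 (SD 0.01), then Tap2 at 8.31 (SD 0.05), Tap1 at 7.88 (SD 0.13), Erap1 at 6.15 (SD 0.20), Nlrc5 at 3.83 (SD 0.06) and H2-Q4 at 2.11 (SD 0.40). No neighbours in this order overlapped in WT at 0 h. After LPS in WT, Tap1 (10.60) and Tap2 (10.51), which overlapped each other, stood above H2-T23 (10.11), which went from rank 5 to rank 7. In cKO H2-T23 had rank 6 at 0 h, where it overlapped Tap2, and rank 7 after LPS, where Tap1 and Tap2 overlapped again. The other 7 genes kept their ranks in all 4 groups. The levels depend on the length used. With the longest transcript in place of merged exons, H2-K1 stood at 13.15 in WT at 0 h. The ranks were then the same, except that Tap1 and Tap2 changed places in cKO after LPS.

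The other genes of the pathway were grouped by role. Their counts are to be read beside those of all tested genes, of which 22.5% rose and 19.7% fell with LPS in WT. In cKO 19.6% of all tested genes rose and 17.5% fell. Of 23 other class I heavy chain genes listed, 10 were tested; 10 rose with LPS in WT and 9 in cKO, led in WT by H2-Q6 (2.65), H2-M2 (2.13) and H2-Q7 (2.12) and in cKO by H2-Q6 (3.07), H2-Q7 (2.52) and H2-M2 (2.22). The Q chains are partly near-identical copies, so their single values are uncertain. Class I-like chains went the other way: 3 of 4 tested fell in each genotype, Mr1, which presents vitamin metabolites (-1.56 in WT, -1.99 in cKO), Hfe, which regulates iron uptake (-1.15 and -1.23), and Fcgrt, the neonatal Fc receptor (-0.68 and -0.72). Fcgrt stood at -0.42 without WT 0 h replicate 1 and at -0.40 without WT LPS replicate 2, neither past the threshold, and in cKO its call ended with no filter (adjusted p = 0.136) and without any 1 of the 4 cKO libraries (adjusted p = 0.0891 to 0.139).

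Peptide supply genes, the proteasome subunits and peptidases that make and trim peptides, rose in 10 of 16 tested in each genotype and 0 fell. By comparison, 22.5% of all tested genes rose in WT and 19.6% in cKO. Lap3, a leucine aminopeptidase, led (2.50 in WT, 2.40 in cKO), with the proteasome activator genes Psme2 (1.83 and 1.57) and Psme1 (1.57 in WT) and the immunoproteasome gene Psmb9 (1.44 in cKO). Among folding and loading chaperones the share of calls was near that over all genes, 42.2% in WT and 37% in cKO. Of 10 tested, 3 rose and 1 fell in WT and 2 rose and 1 fell in cKO: Tapbpl, the tapasin-like peptide editor (1.92 and 2.06), Hspa5, the BiP chaperone (0.85 and 0.66), Prkcsh in WT (0.52), and Erp29, which fell (-0.73 and -0.69). The calls of Hspa5, Prkcsh and Erp29 each ended under several alternatives. With quantile normalization Hspa5 was at 0.17 in WT (adjusted p = 0.498) and 0.19 in cKO (adjusted p = 0.468). Without WT LPS replicate 1 Hspa5 in WT was at 0.54 (adjusted p = 0.0696), without WT LPS replicate 2 Erp29 in WT was at -0.38 (adjusted p = 0.0738), and Prkcsh also missed the threshold in the authors' deposited table (adjusted p = 0.177).

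Regulators of class I promoters rose in 15 of 21 tested genes in WT, with 1 fall, and in 13 in cKO, with 0. The shares of all tested genes that rose were 22.5% in WT and 19.6% in cKO. The interferon regulatory factor gene Irf1 led (3.25 in WT, 3.08 in cKO), followed by the NF-kB genes Nfkb2 (2.104 and 2.22) and Nfkb1 (1.76 in WT) and by Stat2, a subunit of the interferon-activated factor (1.63 in cKO). Kpnb1, an importin, fell in WT (-0.48), a call that ended with only the groups compared (adjusted p = 0.0659). Of 15 tested genes of class I export and turnover, 5 rose and 1 fell in WT and 6 rose in cKO, again near the shares over all genes. The largest rises were in Ehd1, an endosomal recycling factor (2.62 and 3.0), the COPII coat gene Sec24b (2.01 and 1.70) and the intramembrane protease gene Sppl2a (1.75 and 1.55). Sec24d, another coat gene, fell in WT (-0.68), but not with no filter on low values (adjusted p = 0.0642). For contrast, 1 of 9 tested MHC class II genes rose in each genotype, a count that says little beside the shares of all genes that rose. It was H2-Oa, which moderates class II loading (1.37 and 1.02). Its cKO call ended with no filter on low values (adjusted p = 0.0861), and its cKO difference was 0.74 without cKO LPS replicate 1.

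**Figure D5:**
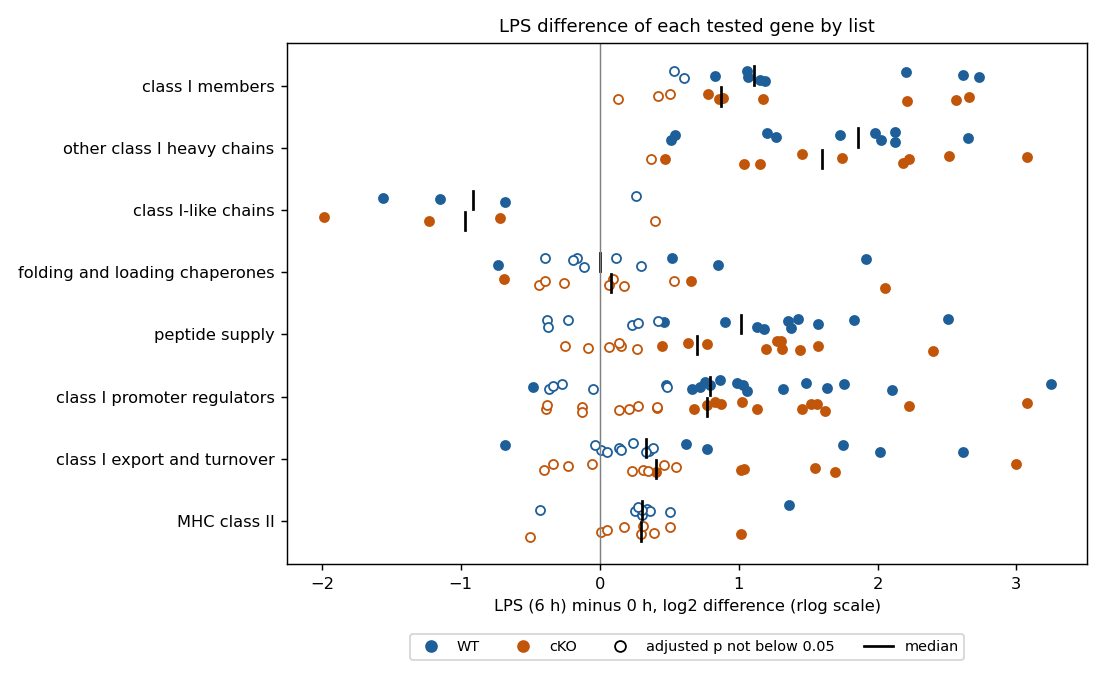
LPS (6 h) minus 0 h log2 difference on the rlog scale (horizontal axis) of each tested gene in 8 pathway lists (rows), in WT (blue) and cKO (orange); open points have an adjusted p of 0.05 or more and black bars are list medians. Heavy chains and peptide supply genes lie mostly to the right of 0, 3 of 4 class I-like chains to the left.

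By genotype, 0 genes of these other lists were called at 0 h with limma, where 0.251% of all tested genes were. After LPS 2 were higher in cKO, Nrd1, a metallopeptidase gene (0.98, adjusted p = 0.0315), and Tmem127 (1.30, adjusted p = 0.0221), a membrane protein known to promote class I degradation. They were 1 of 16 tested peptide supply genes and 1 of 15 tested export and turnover genes. Over all tested genes 3.97% were called after LPS, so counts this small say little about the lists. Both calls ended with no filter on low values (adjusted p = 0.123 and 0.10) and with any 1 of the 4 LPS libraries left out, where the difference was 0.84 to 1.12 for Nrd1 and 1.05 to 1.55 for Tmem127. Tmem127 levels in WT were 7.03 and 6.89 at 0 h and 7.34 and 7.23 after LPS; in cKO they were 7.28 and 7.80 at 0 h and 8.33 and 8.83 after LPS. Averaged over times Nrd1 (0.73, adjusted p = 0.0193) and Tmem127 (0.94, adjusted p = 0.0135) were higher too. With no filter on low values these averaged calls ended (adjusted p = 0.0918 and 0.0707). The chaperone gene Canx (-0.41) and the class II genes H2-Aa (-1.11), H2-Ab1 (-0.88) and Cd74 (-0.69) were lower in the averaged difference, and in all 4 of 9 class II genes were. Over all tested genes 2.88% were higher and 4.14% lower. The calls of Canx, H2-Aa, H2-Ab1 and Cd74 ended with no filter and under quantile normalization.

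Genes whose profiles over the 8 samples were closest to a member were ranked among 10381 named genes by the root mean square difference of centred rlog values. Among the nearest to Nlrc5 were Nfkbib (0.123) and Apol7c (0.142), and nearest to Tap1 were Rnase10 (0.0945), Mov10 (0.0978) and Nfkbib (0.103). For H2-K1 they were Prpsap1 (0.0728), Rarg (0.0747) and Eif4e2 (0.0794). The closest to H2-T23, Rgs1 (0.184), Mfap3l (0.207) and its neighbour Ppp1r10 (0.208), were farther away than those of the other 3.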

How the data were processed

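Poly(A) RNA was sequenced from 8 BMDM samples, with libraries amplified for 15 PCR cycles per the labels' protocols. Per the submitters' processing notes, the build was GRCm38 and the tools included featureCounts, DESeq2, CASAVA and HISAT2 2.1.0, with no roles stated. The sources used here do not give strand setting, annotation or the handling of multiply matching reads. The authors deposited log2 values (rlog output, from -2.31 to 19.31) and, per the file headers, their own log2 fold changes and p-values for 4 comparisons. Depth per sample is unknown, so no counting interval can be given; rlog understates changes of low genes.

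A model with 4 group means was fitted with limma 3.58.1 in R 4.3.3 (variance trend, 4 residual and 4.4 prior degrees of freedom) to the 11543 genes whose mean rlog reached 3. Adjusted p-values are Benjamini-Hochberg values with a threshold of 0.05. The fit was tested on simulated data. Alternatives were normalization, filter, trend, robust fit, fewer groups, replicate block, the authors' table and leaving out each library. Positions and lengths are from GENCODE M21 (GRCm38), whose symbols matched 11440 of the 11543. Marker levels are the log2 of summed linear values. The members and lists were chosen with earlier results of these data known. Named genes are the members, Paxip1, up to 3 of the largest called rises and falls of each list, and the 3 nearest profiles of 4 members, of which 1 is not reported here; alternatives for list genes, the H2-T23 neighbours, the 25-base spacing and marker sums without their leading gene were added after seeing the data.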

Additional observations from a re-analysis of the deposited data

How the results depend on the processing

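Depth is unknown, so what it limits could not be measured, and 2 samples a group leave 4 residual degrees of freedom. The LPS rises of Tap1, Tap2, Nlrc5, Erap1 and H2-T23 passed in both genotypes under every alternative run; the exceptions among the other members are named beside their values. The number of members called at 0 h between genotypes, 1, was 0 with no filter on low values, 0 with a minimum mean rlog of 5, 0 without the variance trend, 0 with only the groups compared and 0 to 0 when 1 library was left out; it was 0 to 1 after LPS and 5 to 7 for LPS in cKO when 1 library was left out. Over all genes, the 29 calls at 0 h became 114 with no filter, 9 without the trend, 0 with only the groups compared, 176 in the authors' deposited table and 2 to 128 with 1 library left out (2 without WT 0 h replicate 1, 128 without cKO 0 h replicate 1). The 458 calls after LPS became 235 with quantile normalization, 208 with no filter, 301 without the trend and 0 to 582 with 1 library left out (0 without either cKO LPS library, 14 without WT LPS replicate 1). The averaged difference had 359 calls with no filter against 810, and 109 to 775 with 1 library left out (109 without cKO LPS replicate 2). LPS in cKO had 2684 to 4468 calls, and the interaction had 10 with no filter against 0. In the runs with 1 library left out the lone sample of a group is assumed to vary like the other groups. The cause of these shifts was not tested.

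Same-numbered samples were checked for pairing: their deviations from the group means correlated across genes at -0.04 to 0.31. They correlated at 0.22 between the times in WT and at 0.31 in cKO. Across genotypes they correlated below 0.1 for WT 0 h with either cKO group. For WT LPS the values were 0.19 with cKO 0 h and 0.20 with cKO LPS, near the value within WT. The titles give the same number to both times of a genotype, but the labels do not say that it marks a mouse, so the numbers were not taken as pairs. With a replicate block 72 genes were called at 0 h and 804 after LPS; H2-T23 stayed called (adjusted p = 0.0321 and 0.00476), and B2m passed for LPS in WT (adjusted p = 0.0307). With a replicate block within each genotype B2m passed there too (adjusted p = 0.0225), 9 members were called for LPS in WT and 7 in cKO.

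Differences that did not pass the threshold changed sign in some settings. With quantile normalization they were 0.22 for H2-K1 at 0 h, and after LPS 0.37 for H2-K1, 0.19 for H2-D1, 0.0196 for Tap1, 0.13 for Tap2, 0.0846 for Tapbp and 0.024 for Nlrc5. Its interaction values were 0.15 for H2-K1, 0.19 for Tap1, 0.11 for Tapbp, 0.0369 for Nlrc5 and 0.13 for Erap1, and its averaged values 0.29 for H2-K1, 0.0221 for Tap2, 0.0271 for Tapbp and 0.0055 for Nlrc5. In the authors' deposited table Nlrc5 was at 0.0071 at 0 h and 0.0001 after LPS, and H2-D1 at 0.0157 after LPS. With 1 library left out B2m ran from -0.0224 to 0.2882 for LPS in cKO. At 0 h the genotype difference ran from -0.091 to 0.0496 for H2-K1, -0.0255 to 0.1771 for H2-D1, -0.2957 to 0.0025 for Tap2, -0.3858 to 0.1084 for Tapbp and -0.11 to 0.1014 for Nlrc5. After LPS it ran from -0.223 to 0.0818 for H2-K1, -0.1562 to 0.0803 for H2-D1 and -0.2729 to 0.0043 for Tap2. The interaction ran from -0.2022 to 0.1026 for H2-K1, -0.232 to 0.0045 for H2-D1, -0.1886 to 0.053 for Tap1, -0.1368 to 0.1614 for Tap2, -0.4243 to 0.0699 for Tapbp, -0.1507 to 0.0606 for Nlrc5 and -0.1632 to 0.1243 for Erap1. The averaged difference ran from -0.1218 to 0.0306 for H2-K1, -0.0402 to 0.0781 for H2-D1, -0.0257 to 0.2581 for H2-Q4 and -0.0797 to 0.026 for Nlrc5. For the genes named from the other lists, 750 of the values recomputed kept their side of the threshold, 112 lost it and 0 changed direction.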

Other observations

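Of the transcription factor genes of the RFX and NF-Y complexes, Rfx5 and Nfyb were picked out after their values were seen, as the members with the most negative interaction. The interaction of the other tested members was 0.26 for Nfya, 0.33 for Nfyc and -0.02 for Rfxank, none past the threshold. Rfx5 had a mean rlog of 3.45, close to the minimum of 3, and values this low are pulled together by the transformation. Its levels in WT were 2.88 and 3.06 at 0 h and 4.07 and 3.94 after LPS. In cKO they were 3.44 and 3.24 at 0 h and 3.52 and 3.44 after LPS. Its LPS difference was 1.03 in WT (SE 0.18, limma adjusted p = 0.00244) and 0.14 in cKO (adjusted p = 0.586). The test of the difference between the 2 gave -0.89 (SE 0.26, unadjusted p = 0.00847) and did not pass (adjusted p = 0.682). Nfyb rose in both genotypes, by 1.32 in WT (adjusted p = 0.000710) and by 0.68 in cKO (adjusted p = 0.0215), with an interaction of -0.64 (adjusted p = 0.751).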
